A study of Mus musculus with 15 samples.

Results

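The 44 collagen genes on the array were followed in the scraped distal colon mucosa of 15 mice. A gene was counted as a collagen when the array's annotation named a non-control probe Col, digits, a, digits, with nothing after, which gave 91 of the 56504 probes and 44 of the 37016 genes. Of the 44, 27 are called measured here, because a probe of theirs stood well above background on 5 or more of the 15 arrays, and 17 had none. The mice were female Balb/cJ, 8 weeks old when colitis was induced, and each of 3 groups held 5 of them, with 1 array per mouse. The first group drank 4% dextran sodium sulfate (DSS), which injures the colon lining, in 3 cycles of 4 days with 3 days of plain water between, and received filgotinib, an inhibitor with preference for the kinase JAK1, at 30 mg/kg by gavage each day. The second group drank DSS on the same schedule and received the vehicle of the drug, and the third group drank water. The labels of the water group give a vehicle control as its compound, whereas the design text speaks only of water to drink, so whether these mice were gavaged is not known here. All samples were mucosa scraped off the connective tissue beneath it over the last 30 mm of the descending colon, so the samples contained lamina propria as well as epithelium.

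Most collagens are secreted proteins, and some, such as type XVII, span the cell membrane. Their chains wind together into a triple helix, which requires a glycine at each turn of the repeat. Fibrillar collagens such as types I, III and V form the rope-like fibrils of the lamina propria and submucosa and are made mainly by fibroblasts. Type IV collagen forms the sheet under the epithelium and around vessels and muscle cells, with types XV and XVIII at its margin, and type VI forms beaded filaments that link that sheet to the fibrils. In the gut, deposition of collagen by fibroblasts is the basis of the fibrosis that can follow long inflammation.

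The repeat that defines the family can be read in the array's own probes. Of the 91 collagen probes, 4 carry a glycine codon (GGN) at every ninth base along their whole length, among them the probe below for Col6a3, which encodes a chain of type VI collagen and whose levels are given further on. The second is a probe for Col5a3, a chain of type V collagen. It stayed at background in all 15 mice, unlike the other Col5a3 probe. The genomic span of each in the array's mm9 annotation exceeds its 60 bases (993 bases for Col6a3 on chr1:92689602-92690594 and 730 bases for Col5a3 on chr9:20590066-20590795, both on the minus strand). Glycine codons are in capitals.
Col6a3 probe: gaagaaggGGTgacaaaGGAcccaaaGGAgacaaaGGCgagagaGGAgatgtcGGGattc
Col5a3 probe: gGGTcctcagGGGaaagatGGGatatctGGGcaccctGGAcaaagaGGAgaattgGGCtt

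The promoters of 5 collagens are shown, each as the 250 bases before the annotated start. They come from RefSeq on GRCm38.p6, where 35 of the 44 genes, measured or not, had an entry. Any part of these sequences in the levels given below was not tested. The capitals mark 4 motifs searched on both strands, the TATA box (TATAAA), the CCAAT box (CCAAT), the GC box (GGGCGG) and the STAT motif (TTCNNNGAA). Each is a match of these letters anywhere in the 250 bases, whatever its distance from the start. Whether a match works as a promoter element was not tested. GC boxes may overlap one another, and a motif on the other strand appears as its reverse complement.
Col1a2, chr6:4505368-4505617, plus strand: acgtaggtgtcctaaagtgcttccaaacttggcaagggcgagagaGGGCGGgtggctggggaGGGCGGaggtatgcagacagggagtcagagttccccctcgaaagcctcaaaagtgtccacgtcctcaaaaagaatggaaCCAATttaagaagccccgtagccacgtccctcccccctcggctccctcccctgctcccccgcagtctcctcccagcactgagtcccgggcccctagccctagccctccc
Col3a1, chr1:45311288-45311537, plus strand: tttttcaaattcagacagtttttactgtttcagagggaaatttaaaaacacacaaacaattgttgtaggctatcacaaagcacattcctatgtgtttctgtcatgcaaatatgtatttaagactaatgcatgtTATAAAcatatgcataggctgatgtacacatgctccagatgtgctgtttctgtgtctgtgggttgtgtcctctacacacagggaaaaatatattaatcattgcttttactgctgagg
Col5a3, chr9:20815068-20815317, minus strand: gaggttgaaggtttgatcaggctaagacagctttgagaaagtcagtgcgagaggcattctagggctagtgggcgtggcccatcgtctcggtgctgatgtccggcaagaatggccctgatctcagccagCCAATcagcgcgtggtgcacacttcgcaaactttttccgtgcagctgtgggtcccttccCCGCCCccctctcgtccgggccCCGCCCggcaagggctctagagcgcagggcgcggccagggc
Col4a1, chr8:11312827-11313076, minus strand: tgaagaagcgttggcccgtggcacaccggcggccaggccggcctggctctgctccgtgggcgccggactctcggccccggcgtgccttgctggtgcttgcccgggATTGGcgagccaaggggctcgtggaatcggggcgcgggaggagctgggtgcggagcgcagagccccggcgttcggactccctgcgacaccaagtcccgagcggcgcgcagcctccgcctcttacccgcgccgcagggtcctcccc
Col18a1, first of 2 annotated starts, chr10:77166531-77166780, minus strand: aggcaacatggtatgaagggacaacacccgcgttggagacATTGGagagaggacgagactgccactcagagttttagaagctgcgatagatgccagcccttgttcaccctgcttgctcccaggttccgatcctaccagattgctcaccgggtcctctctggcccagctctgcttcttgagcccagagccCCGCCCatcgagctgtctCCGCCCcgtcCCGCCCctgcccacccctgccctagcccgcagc
The type I and type III genes, whose products form mixed fibrils, differ here: the Col1a2 window holds 1 CCAAT box and 2 GC boxes, and the Col3a1 window holds neither but has 1 TATA box. Col5a3 has the same counts as Col1a2, and Col18a1 has 1 CCAAT box and 3 GC boxes at this start and no motif at its other start. None of the 5 windows holds the STAT motif, which 7.02% of all 32851 windows hold and 5.26% of the 38 collagen windows. The GC box was found in 57.9% of collagen windows and in 32.7% of all windows, the CCAAT box in 34.2% and 33.8%, and the TATA box in 13.2% and 12.4%. Col4a1 and Col4a2, the paired chains of the common type IV network, lie head to head, and their full windows, which run on for 50 bases past the start, overlap by 78 bases.

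On the arrays, 50.2% to 62.1% of probes were well above background, and Pearson's r between arrays of a group, across probes, lay between 0.974 and 0.995. The 75th percentile of the processed intensity was 552 to 663 in filgotinib mice, 570 to 667 in vehicle mice and 684 to 813 in water mice. All values below are log2 of the processed signal relative to that percentile of the same array, so that 0 is a signal equal to it, and they are compared between mice for 1 gene at a time, not between genes. The colon markers Epcam and the other 9 epithelial genes of the marker list were measured on these arrays, and the mean shift of the list from the water mean was 0.10 to 0.25 in filgotinib mice, 0.12 to 0.23 in vehicle mice and -0.08 to 0.08 in water mice, and 6 of the 10 were called higher in vehicle mice and 4 in filgotinib mice, each against water mice (10.8% and 6.42% of all genes). The arrays sat on 6 slides scanned on 4 days. Only slide 2 held both vehicle and water mice (1 and 2 of them) and only slide 3 held both filgotinib and vehicle mice (2 and 3), so slide and group are largely confounded.

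The most visible feature of the collagens was the spread between mice of 1 group. The within-group SD, pooled over the 3 groups, exceeded 1 on the log2 scale in 15 of 27 measured collagens (55.6%), against 522 of all 22012 genes tested (2.37%). Its median was 1.13 in the collagens and 0.185 in all genes. By class, 6 of 8 measured fibrillar collagens, 3 of 4 basement membrane collagens and 6 of 15 others passed that SD. The 15 were Col1a1, Col1a2, Col2a1, Col3a1, Col5a1 and Col5a3 among the fibrillar genes, Col4a1, Col4a2 and Col18a1 of the basement membrane, the 5 measured type VI genes, and Col12a1, which coats fibrils. Col2a1, Col12a1, Col6a5 and Col6a4 were well above background on 3, 2, 3 and 3 filgotinib arrays. They were so on all 5 vehicle arrays and on 3, 3, 3 and 5 water arrays. Their spread therefore includes values at background.

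These 15 genes ranked the mice alike. In the filgotinib group mouse 3 was the highest for all 15 and mouse 1 the lowest for 14. In the vehicle group mouse 5 was the highest for 15 and mouse 2 the lowest for 14, and in the water group mouse 5 was the highest for 13 and mouse 2 the lowest for 13. The 12 collagens with a smaller SD did not share this order as a set: the same filgotinib mouse 3 was the highest for 4 of them and mouse 1 the lowest for 4. Col4a5, Col8a1 and Col16a1 among them had filgotinib mouse 3, vehicle mouse 5 and water mouse 5 highest and filgotinib mouse 1 lowest. The members share the array and its scaling, so these counts are a description and not 15 separate observations.

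**Figure D1:**
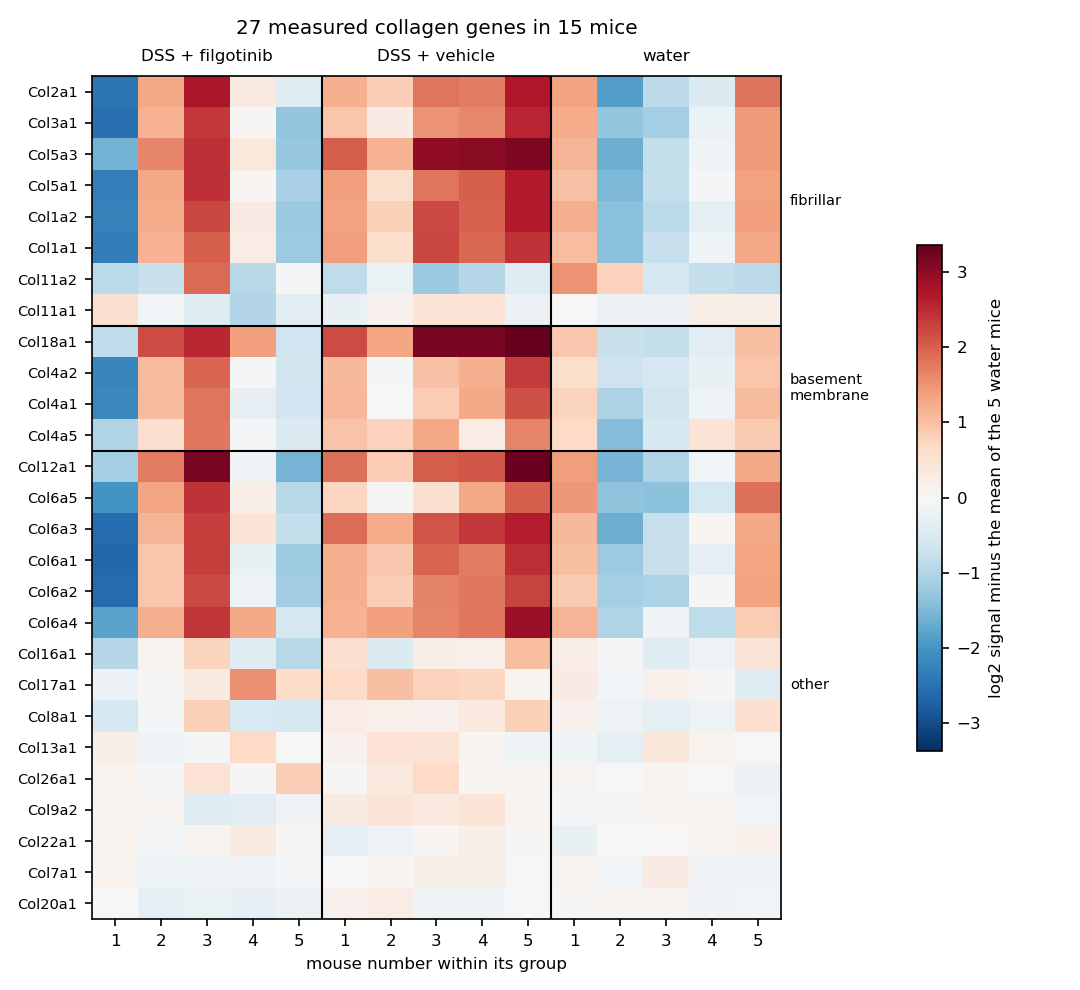
Heat map of the 27 measured collagens (rows, grouped as fibrillar, basement membrane and other) in the 15 mice (columns); colour is the log2 signal minus the mean of the 5 water mice. Filgotinib mouse 3, vehicle mouse 5 and water mouse 5 are red down most of the fibrillar, type IV and type VI rows, and filgotinib mouse 1 is blue, while the lower rows from Col16a1 to Col20a1 stay pale.

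Col1a1 encodes the major chain of type I collagen, the main fibril protein. Its log2 level was -2.98, 0.52, 1.36, -0.39 and -1.87 in filgotinib mice 1 to 5, 0.76, -0.05, 1.61, 1.28 and 1.78 in vehicle mice, and 0.40, -2.03, -1.43, -0.79 and 0.65 in water mice. Filgotinib mouse 1 lay under every water mouse and filgotinib mouse 3 above 3 of 5 vehicle mice, and all groups overlapped. The filgotinib mice spanned a 20.3-fold range, the vehicle mice 3.56-fold and the water mice 6.41-fold. Repeat spots varied far less: the array carries 2 Col1a1 probes at 10 spots each, and the SD between spots of 1 probe on 1 array had a median of 0.074 and 0.069 log2 units. Col1a1 averaged 1.07 ± 0.74 in vehicle mice and -0.64 ± 1.15 in water mice (SD, n = 5 each). The fitted difference was 1.72 ± 0.75 (SE), with an adjusted p of 0.123 from limma.

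Col1a2 encodes the partner chain of type I collagen. Its level was -0.81, 2.72, 3.71, 1.75 and 0.23 in filgotinib mice, 2.83, 2.28, 3.68, 3.46 and 4.14 in vehicle mice, and 2.69, 0.08, 0.57, 1.18 and 2.84 in water mice. Vehicle mouse 2 lay below water mice 1 and 5, so these groups overlapped as well.
Col3a1 encodes type III collagen, abundant in soft and healing tissue. Its level was -1.48, 2.23, 3.43, 1.12 and -0.26 in filgotinib mice, 2.00, 1.35, 2.59, 2.67 and 3.62 in vehicle mice, and 2.31, -0.24, -0.08, 0.85 and 2.50 in water mice. The same mice were at the ends of each group as for Col1a1, and the filgotinib range was 30.1-fold.

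Col5a1 encodes a chain of type V collagen, which starts fibrils and limits their width. It was -3.88, -0.28, 0.87, -1.52 and -2.67 in filgotinib mice, -0.17, -1.0, 0.22, 0.42 and 1.09 in vehicle mice, and -0.59, -3.09, -2.38, -1.61 and -0.24 in water mice. Vehicle mice 1, 3, 4 and 5 were above every water mouse and vehicle mouse 2 was not. In vehicle mice against water mice the fitted changes of Col1a2, Col3a1 and Col5a1 were 1.81, 1.38 and 1.69, with limma adjusted p of 0.120, 0.262 and 0.148, so none of the 3 passed the threshold of 0.05. In filgotinib mice against vehicle mice they were -1.76, -1.44 and -1.61, with adjusted p of 0.159, 0.280 and 0.200.

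The basement membrane chains followed the same mice. Col4a1 was -3.50, -0.26, 0.48, -1.60 and -1.97 in filgotinib mice, -0.22, -1.32, -0.46, -0.04 and 0.81 in vehicle mice, and -0.58, -2.35, -1.93, -1.49 and -0.27 in water mice. Col4a2, whose promoter window overlaps that of Col4a1, was -4.05, -0.78, 0.11, -1.90 and -2.48 in filgotinib mice, -0.77, -1.91, -0.87, -0.64 and 0.49 in vehicle mice, and -1.27, -2.55, -2.42, -2.10 and -0.91 in water mice. Both chains kept the same order of mice in each group, and in both the vehicle and water groups overlapped. Their fitted changes in vehicle against water were 1.08 ± 0.65 and 1.11 ± 0.66 (SE), with limma adjusted p of 0.263 and 0.252. In filgotinib against vehicle they were -1.12 and -1.08, with adjusted p of 0.280 and 0.301. Within slide 2 the vehicle against water differences of Col4a1 and Col4a2 were -0.22 and -0.25. Within scan day 1 these differences were 1.65 and 1.66.

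**Figure D2:**
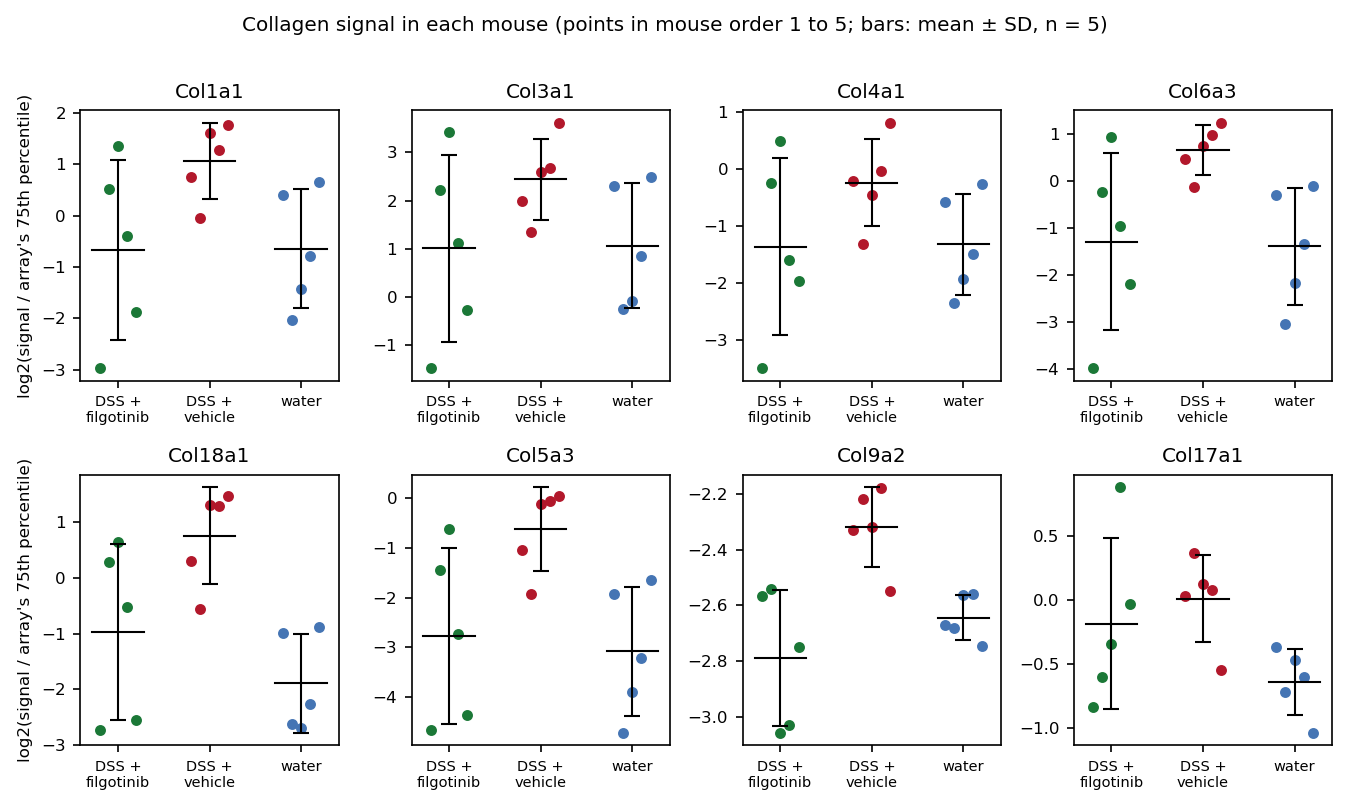
Log2 signal relative to the array's 75th percentile (vertical axes) of 8 collagens in each mouse of the filgotinib, vehicle and water groups, with the group mean and SD (n = 5). Col1a1, Col3a1, Col4a1 and Col6a3 share one pattern of mice, the Col18a1 values of vehicle and water mice do not overlap, and the Col9a2 axis covers under 1 log2 unit.

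In DSS with vehicle against water, 3 of 27 measured collagens rose and none fell at an adjusted p under 0.05. Among all genes tested, 19.2% were called, 10.8% higher and 8.41% lower, so the share of collagens called higher, 3 of 27, is close to that of all genes. The fitted change was positive in 25 of the 27, against 57.4% of all genes, and its median was 1.08, against 0.05 over all genes. At an unadjusted p under 0.05 there were 9 of 27, a share near the 34.1% of all genes. Col2a1, Col12a1, Col4a5 and Col6a5 were well above background on all 5 vehicle arrays, but on 3, 3, 4 and 3 water arrays. On filgotinib arrays the counts were 3, 2, 2 and 3. Their values at background enter the counts and medians of all 3 comparisons. The 3 that rose were Col18a1, Col5a3 and Col9a2. The count was 5 without filgotinib mouse 1, whose array enters the shared estimate of spread, and 1, Col18a1, when vehicle mouse 1, 3 or 4 or water mouse 2, 3 or 4 was left out. Of all genes, 19.2% were called in the first of these fits and 12.9% to 18.2% in the others.

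Col18a1 encodes type XVIII collagen of basement membranes, whose cleaved end is endostatin, an inhibitor of vessel growth. Its level was -2.74, 0.29, 0.64, -0.52 and -2.56 in filgotinib mice, 0.30, -0.57, 1.30, 1.30 and 1.47 in vehicle mice, and -0.99, -2.63, -2.69, -2.27 and -0.89 in water mice. All 5 vehicle mice were above all 5 water mice, and the filgotinib mice ran from below the lowest water mouse to above 2 of the 5 vehicle mice. The mean was 0.76 ± 0.88 in vehicle mice and -1.89 ± 0.89 in water mice (SD, n = 5 each), a rise of 2.65 ± 0.68 on the log2 scale (SE), or 6.30-fold, with a limma adjusted p of 0.0155. The groups did not overlap for 3 of 27 collagens, Col18a1, Col9a2 and Col6a4, all higher in vehicle mice, against 16% of all genes (9.84% higher and 6.19% lower). In bulk mucosa, more RNA per cell and more cells that make it cannot be told apart, here and in every result below. Within slide 2 the Col18a1 difference was 1.22 and within scan day 1, with 3 mice of each group, it was 2.99. With the slide as a fixed block, a limma fit in which 0.382% of all genes were called, the adjusted p was 0.727. With the scan day as a block (16.5% of all genes called) it was 0.0395.

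Col5a3, another type V chain, was -4.68, -1.45, -0.62, -2.74 and -4.37 in filgotinib mice, -1.04, -1.93, -0.11, -0.06 and 0.05 in vehicle mice, and -1.93, -4.72, -3.89, -3.22 and -1.64 in water mice. Vehicle mouse 2 equalled water mouse 1 at this rounding and was below water mouse 5, and the other 4 vehicle mice were above all water mice. The change was 2.47 ± 0.79 (SE), or 5.52-fold, with a limma adjusted p of 0.0434. The signal was well above background in 3 filgotinib, 5 vehicle and 5 water mice. Within slide 2 the difference was 0.84 and within scan day 1 it was 2.94. The limma adjusted p was 0.849 with the slide as a fixed block (0.382% of all genes called) and 0.0767 with the scan day (16.5%). It was also above 0.05 with the slide as a random block (0.0676), with the replicate block (0.0852) and without the filter on dim probes (0.0599). Under the other gene-level alternatives that measured Col5a3 and left out no single mouse, it ran from 0.0189 to 0.0482. Leaving out any 1 of 7 mice (vehicle 1, 3, 4 or 5, water 2, 3 or 4) took it above 0.05, up to 0.108.

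Col9a2 encodes a chain of type IX collagen, best known from cartilage, where it decorates fibrils. Its level was -2.57, -2.54, -3.06, -3.03 and -2.75 in filgotinib mice, -2.33, -2.22, -2.32, -2.18 and -2.55 in vehicle mice, and -2.67, -2.68, -2.56, -2.56 and -2.75 in water mice. The vehicle mice were above all water mice by a narrow margin, and vehicle mouse 5, the highest for the fibrillar genes, was the lowest here. The change was 0.33 ± 0.11 (SE), or 1.25-fold, with a limma adjusted p of 0.0476. It was 0.44 within slide 2 and 0.29 within scan day 1. The limma call was lost under quantile normalization (adjusted p = 0.132), under scaling to a common median (adjusted p = 0.212) and when any of 10 mice was left out (adjusted p up to 0.102), so it lies at the edge of the threshold. It was lost as well with the slide as a fixed block (0.293) or a random block (0.0735), the scan day (0.0673) and the replicate block (0.0789). Further losses were in the authors' deposited table (0.106), under normexp with quantile normalization (0.0722), without the filter on dim probes (0.0625) and with trend and robust empirical Bayes (0.0637). The call held with the mean of a gene's probes (0.0492), above background on all arrays (0.0383) and in the 2 groups alone (0.0180).

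Col6a3, of type VI collagen, had the next largest fitted change. It was -3.98, -0.24, 0.94, -0.95 and -2.19 in filgotinib mice, 0.48, -0.13, 0.74, 0.98 and 1.25 in vehicle mice, and -0.30, -3.03, -2.17, -1.33 and -0.11 in water mice. Vehicle mouse 2 fell between water mice 1 and 5, and the other 4 vehicle mice were above all water mice. The change from water was 2.05 ± 0.78 (SE), with a limma adjusted p of 0.0798.
Col6a1, the chain shared by all type VI molecules, was -2.29, 1.30, 2.69, 0.10 and -0.83 in filgotinib mice, 1.54, 1.26, 2.33, 2.10 and 2.83 in vehicle mice, and 1.37, -0.86, -0.43, 0.02 and 1.68 in water mice. Its groups overlapped through vehicle mice 1 and 2 and water mice 1 and 5, and its change of 1.66 had an adjusted p of 0.148.
Col6a4 was -5.30, -2.29, -1.09, -2.22 and -4.06 in filgotinib mice, -2.33, -2.13, -1.84, -1.69 and -0.61 in vehicle mice, and -2.36, -4.51, -3.63, -4.35 and -2.63 in water mice. Vehicle mouse 1 was just above water mouse 1, so the groups did not overlap, yet the change of 1.77 ± 0.69 had an adjusted p of 0.0852. In humans the Col6a4 gene is broken, and in mice it encodes a full chain.

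Col17a1 encodes the transmembrane collagen of hemidesmosomes, which anchor epithelial cells to the basement membrane. It was -0.84, -0.60, -0.34, 0.89 and -0.03 in filgotinib mice, 0.03, 0.37, 0.12, 0.08 and -0.54 in vehicle mice, and -0.37, -0.72, -0.47, -0.60 and -1.04 in water mice. Its order of mice was not that of the fibrillar genes: vehicle mouse 5 and water mouse 5, high for these, were the lowest of their groups. The change in vehicle against water was 0.65 ± 0.27, with a limma adjusted p of 0.105. Markers of squamous epithelium, which also makes Col17a1, were listed too, and 8 of 10 were measured (not Krt4 and Sprr3). Of the 8, Dsg3 and Krt14 rose in vehicle against water (10.8% of all genes called higher). Krt14 rose in filgotinib against water (6.42% higher), and Krt1 fell in filgotinib against vehicle (4.53% lower). The summed signal of the 8 ran from 12.5 to 16.7 multiples of the 75th percentile in filgotinib mice, from 14.05 to 17.8 in vehicle mice and from 11.7 to 13.7 in water mice. The part of squamous epithelium in the Col17a1 values was not tested.

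Taken by class in vehicle against water, 7 of 8 fibrillar, 4 of 4 basement membrane and 14 of 15 other collagens had a positive fitted change. The medians were 1.67 for the fibrillar class (range -0.74 to 2.47), 1.09 for the basement membrane class (0.98 to 2.65) and 0.34 for the others (-0.03 to 2.05). Within the others the 5 type VI genes had a median of 1.66. In each class 1 gene was called. The differences between classes were not tested.

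The class level of each mouse, the mean shift of the measured members from the water mean, shows how close the classes ran. The fibrillar level was -1.73, 0.87, 1.97, -0.08 and -0.87 in filgotinib mice, 0.90, 0.52, 1.47, 1.47 and 1.94 in vehicle mice, and 1.06, -1.07, -0.77, -0.24 and 1.00 in water mice. The basement membrane level was -1.56, 1.22, 2.02, 0.25 and -0.60 in filgotinib mice, 1.33, 0.51, 1.58, 1.48 and 2.37 in vehicle mice, and 0.73, -0.98, -0.63, -0.09 and 0.97 in water mice. The 2 levels differed by at most 0.43 in any mouse, while each spanned over 3 log2 units. The level of the other collagens ran from -0.92 to 1.1 in filgotinib mice, from 0.49 to 1.17 in vehicle mice and from -0.57 to 0.54 in water mice. In all 3 classes vehicle mouse 2 lay within the range of the water mice.

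The shifts of Col18a1 and Col5a3 were also read beside those of the other fibrillar collagens. The shift of Col18a1 from its water mean, less the mean shift of the 7 fibrillar collagens other than Col5a3, was 0.91, 1.42, 0.63, 1.51 and 0.15 in filgotinib mice, 1.45, 0.90, 1.94, 1.95 and 1.59 in vehicle mice, and -0.14, 0.24, -0.04, -0.13 and 0.06 in water mice. For Col5a3 the same difference was 0.16, 0.87, 0.57, 0.48 and -0.47 in filgotinib mice, 1.30, 0.73, 1.71, 1.78 and 1.36 in vehicle mice, and 0.10, -0.66, -0.05, 0.11 and 0.50 in water mice. For both genes all vehicle mice were above all water mice on this scale, and for Col18a1 the 5 water mice stayed between -0.14 and 0.24. The 7 genes include Col11a1 and Col11a2, which did not follow the others (fitted changes of 0.13 and -0.74 in vehicle against water). Both genes were picked because they were called in this comparison, so the values are a description and carry no test. The type VI genes and Col12a1 were not set against this baseline, so the separation is not shown to be particular to Col18a1 and Col5a3.

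**Figure D3:**
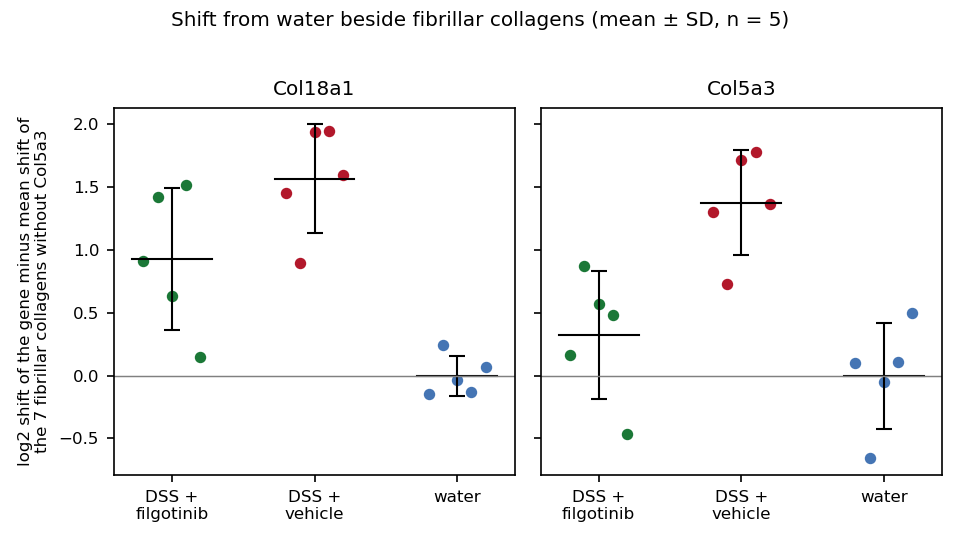
Shift of Col18a1 and of Col5a3 from the water mean less the mean shift of 7 fibrillar collagens (log2, vertical axis), per mouse in the filgotinib, vehicle and water groups with mean and SD (n = 5). Vehicle mice lie between 0.73 and 1.95 in both panels, above all water mice, and filgotinib mice lie between -0.47 and 1.51.

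In filgotinib with DSS against vehicle with DSS, 1 of 27 measured collagens fell and none rose. Of all genes 11.3% were called, 4.53% lower and 6.79% higher. The fitted change was negative in 24 of 27, its median was -1.08 against 0.00 over all genes, and 9 of 27 had an unadjusted p under 0.05, against 28.4% of all genes. Both comparisons use the same 5 vehicle mice, so a high vehicle group raises one and lowers the other, and their opposite signs are not separate observations. No collagen had filgotinib and vehicle values that did not overlap, against 7.99% of all genes (4.87% higher and 3.12% lower).

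The gene that fell was Col9a2, by 0.47 ± 0.11 (SE) on the log2 scale, with a limma adjusted p of 0.0142. It averaged -2.79 ± 0.25 in filgotinib mice and -2.32 ± 0.14 in vehicle mice (SD, n = 5 each), and the groups met only where filgotinib mouse 2 was just above vehicle mouse 5. The difference was -0.20 within slide 3 and -0.37 within scan day 1. Leaving out any 1 mouse kept its limma adjusted p at or below 0.0351. The call was lost under quantile normalization (0.0574), a common median (0.0855), normexp with quantile normalization (0.0777), the 2 groups alone (0.0537), the slide as a fixed block (0.373) and the scan day as a block (0.0535). With the scan day as a block the 1 collagen called was Col8a1 instead.

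The largest fitted changes were those of Col5a3 (-2.15 ± 0.79), Col6a3 (-1.95 ± 0.78) and Col6a1 (-1.82 ± 0.78), with limma adjusted p of 0.0923, 0.118 and 0.139. For Col18a1 the change was -1.74 ± 0.68, with an adjusted p of 0.110. By class the medians were -1.52 for fibrillar, -1.10 for basement membrane and -0.51 for other collagens, and -1.70 for the type VI genes. The count depended on 1 mouse: without filgotinib mouse 3, 7 collagens were called lower (Col18a1, Col5a3, Col6a1, Col6a2, Col6a3, Col8a1 and Col9a2), with 13.9% of all genes called either way. That mouse was alone on its slide and its scan day. Within slide 3, the median collagen difference of the 2 filgotinib mice from the 3 vehicle mice was -2.06, and within scan day 1, which leaves out mouse 3, it was -1.92.

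**Figure D4:**
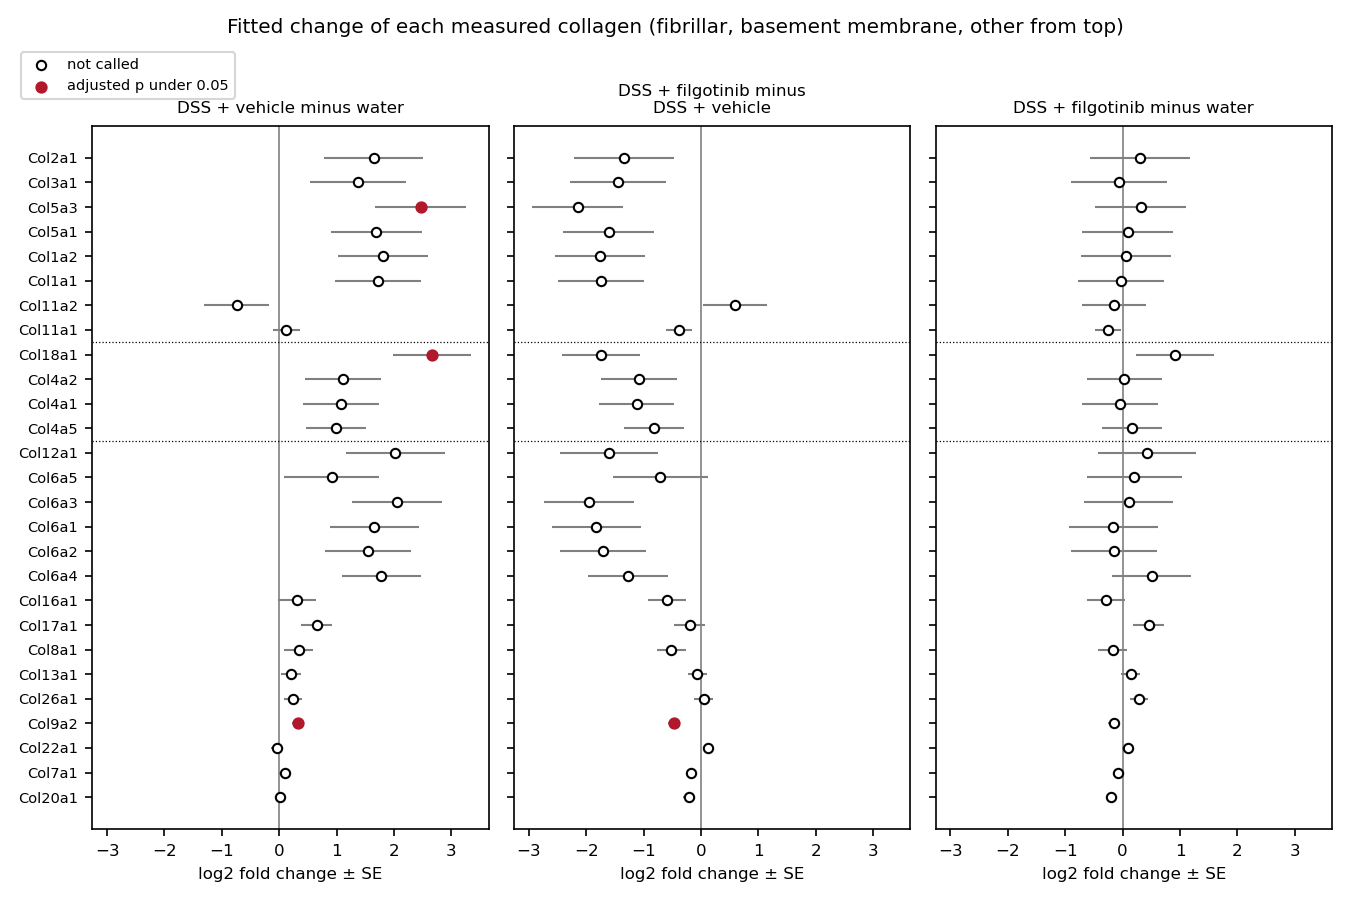
Fitted log2 fold change with its SE (horizontal axis) of the 27 measured collagens in the 3 comparisons, n = 5 mice a group; filled red points have a limma adjusted p under 0.05. Fibrillar, basement membrane and type VI genes lie right of 0 in the left panel, left of 0 in the middle panel and around 0 in the right panel, with Col11a2 as the exception, and the bars of those genes are wider than those of the lowest rows.

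In filgotinib with DSS against water, none of the 27 collagens was called by limma, and 1 had an unadjusted p under 0.05, against 28.7% of all genes. Of all genes 9.83% were called, 6.42% higher and 3.41% lower. The median collagen change was 0.05, the same as over all genes, with 15 of 27 positive, and the groups overlapped for every collagen, against 9.57% of all genes that did not overlap (6.75% higher and 2.82% lower). Col18a1 had the largest fitted change, 0.92 ± 0.68, with an adjusted p of 0.403. Col6a4 (0.50 ± 0.69) and Col17a1 (0.45 ± 0.27) followed, with adjusted p of 0.675 and 0.287. For Col1a1 the difference was -0.03 ± 0.75, an error wide enough that changes of that size either way were not detectable. The median was 0.49 without filgotinib mouse 1 and -0.31 without filgotinib mouse 3.

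Of the 17 collagens that did not pass, 5 were above background on 2 to 4 arrays. These were Col5a2, which pairs with Col5a1 in type V collagen, Col14a1, Col27a1, Col15a1 and Col9a1, and filgotinib mouse 3 was among the arrays for all 5. Vehicle mouse 5 was among them for 4. Col25a1, Col28a1 and Col9a3 were above background on 1 array each. The remaining 9 passed on no array, namely Col10a1 of growth plate cartilage, Col4a3, Col4a4 and Col4a6 of specialised basement membranes, Col6a6, Col8a2, Col19a1, Col23a1 and Col24a1. The 12 measured collagens with an SD up to 1 include Col4a5, Col7a1 of the anchoring fibrils, Col8a1, Col11a1, Col11a2, Col13a1, Col16a1, Col20a1, Col22a1 and Col26a1. Their fitted changes in vehicle against water ran from -0.74 for Col11a2 to 0.98 for Col4a5.

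Several collagens have more than 1 probe, and a fit of each probe on its own, chosen after seeing the data, gave 17.5% of all probes called in vehicle against water, 9.85% in filgotinib against vehicle and 8.61% in filgotinib against water. The Col6a3 probe printed above, which reads the glycine repeat, rose by 1.54 ± 0.42 (SE) in vehicle mice against water mice, with a limma adjusted p of 0.0231, and fell by 1.46 ± 0.42 in filgotinib mice against vehicle mice, with an adjusted p of 0.0432. Its levels were -5.46, -3.99, -2.92, -5.05 and -5.15 in filgotinib mice, -3.14, -3.65, -2.83, -3.03 and -2.61 in vehicle mice, and -4.14, -5.26, -4.56, -5.07 and -3.91 in water mice. The vehicle mice were all above the water mice on this probe, while the brighter probe that stands for the gene, at chr1:92663663-92663722, was not called. The printed probe was well above background on 10 arrays only, so its changes include values at background and their size is uncertain. The other measured Col6a3 probe, annotated to an Ensembl transcript and well above background on all 15 arrays, rose by 0.48 ± 0.14 in vehicle against water (limma adjusted p = 0.0310) and had a fitted change of -0.35 in filgotinib against vehicle (adjusted p = 0.129), so the 3 probes differ in size. For Col1a2, a probe annotated to an Ensembl transcript at chr6:4479333-4479392 rose by 2.84 ± 0.87 (limma adjusted p = 0.0379), against 1.81 for the RefSeq mRNA probe at chr6:4490619-4490678. For Col3a1, 2 Ensembl probes had fitted changes of 2.59 and 2.55 (limma adjusted p = 0.0591 and 0.0589), against 1.38 for its RefSeq mRNA probe. Whether these Ensembl probes of Col1a2 and Col3a1 lie in exons or introns was not determined here. They were above background on 9 arrays each, so their changes also include values at background. The 3 Col1a1 probes gave 1.72, 1.67 and 1.97.

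Collagen chains need enzymes and partners, and 55 such genes were listed under 4 headings, with 47 measured. In vehicle against water, 7 of the 47 were called higher and 1 lower, in filgotinib against vehicle 0 and 1, and in filgotinib against water 4 and 0. The background shares are those given above. Of 19 measured genes of chain modification and folding, 5 rose in vehicle mice against water mice: P3h2 by 1.74, Plod2, a lysyl hydroxylase, by 1.25, the prolyl 3-hydroxylase P3h1 by 0.42, its relative P3h4 by 0.40 and Tmem38b, an ion channel of the endoplasmic reticulum, by 0.60 (limma adjusted p of 0.0261, 0.0303, 0.0324, 0.0148 and 0.00628). P3h2 was well above background on 1 filgotinib, 5 vehicle and 2 water arrays and Plod2 on 3, 5 and 4, so P3h2 passed the filter mainly through the vehicle mice and its change is set against a water group mostly at background. Serpinh1, the chaperone of the triple helix, and Fkbp10, a collagen prolyl isomerase, had fitted changes of 1.61 and 1.73 with limma adjusted p of 0.204 and 0.108. In filgotinib mice against water mice P3h4 and Tmem38b were called as well, rising by 0.39 and 0.57 (limma adjusted p = 0.0286 and 0.0191).

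None of the 8 measured genes of propeptide cleavage and crosslinking was called in any comparison. Loxl2, a crosslinking lysyl oxidase, was -4.09, -0.83, 0.09, -1.91 and -2.77 in filgotinib mice, -0.39, -1.21, 0.29, 0.13 and 0.77 in vehicle mice, and -1.12, -2.71, -2.91, -1.89 and -0.77 in water mice. The mice at the ends of each group were again those of Col1a1 in the filgotinib and vehicle groups. Its fitted change was 1.80 in vehicle against water and -1.82 in filgotinib against vehicle, with limma adjusted p of 0.0799 and 0.0976. Adamts14, which removes the amino propeptide, had fitted changes of 1.72 and -1.90, with limma adjusted p of 0.134 and 0.123. The lysyl oxidases Lox and Loxl1 had 1.24 and 0.98 in vehicle against water, and all 8 genes had a positive fitted change there. Of these, Adamts14 was well above background on 2 filgotinib, 5 vehicle and 3 water arrays, Lox on 1, 4 and 3, and Loxl1 on 2, 5 and 4.

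Of 9 measured collagen receptors, Itgb1, the beta-1 integrin chain, rose by 0.35 in vehicle mice (limma adjusted p = 0.00429) and by 0.36 in filgotinib mice (adjusted p = 0.0118), both against water. Gp6, the platelet collagen receptor, fell by 0.65 in vehicle mice against water mice (limma adjusted p = 0.0413).

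Among the 11 genes listed under TGF-beta signalling, which drives collagen synthesis in fibroblasts, Ltbp2 was the only one called. It belongs by name to the family of latent TGF-beta binding proteins. Whether it acts on TGF-beta here was not tested. Its level was -3.25, -1.83, -3.15, -2.40 and -3.18 in filgotinib mice, -1.92, -2.18, -2.0, -1.86 and -1.62 in vehicle mice, and -3.66, -4.10, -3.75, -3.85 and -3.75 in water mice. Both DSS groups were above all water mice, and filgotinib mouse 2 was inside the vehicle range. It rose by 1.91 ± 0.23 in vehicle against water (limma adjusted p = 0.000198), fell by 0.85 ± 0.23 in filgotinib against vehicle (adjusted p = 0.0322) and rose by 1.06 ± 0.23 in filgotinib against water (adjusted p = 0.0176). Its SD was 0.62 in filgotinib mice, 0.20 in vehicle mice and 0.17 in water mice.

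Markers of other cell types were read beside the collagens. All 10 listed fibroblast markers were measured and none was called in any comparison. Their mean shift from the water mean was -2.25, 1.22, 2.47, -0.19 and -0.76 in filgotinib mice, 0.97, -0.29, 0.72, 0.78 and 2.69 in vehicle mice, and 0.91, -0.73, -1.03, -0.45 and 1.29 in water mice. Filgotinib mouse 3 and vehicle mouse 5 were the highest and filgotinib mouse 1 the lowest, as for the collagens. Their summed signal, in multiples of the array's 75th percentile, ran from 1.52 to 30.6 in filgotinib mice, from 4.30 to 37.0 in vehicle mice and from 2.40 to 13.2 in water mice. Dcn, which encodes the fibril-binding proteoglycan decorin, was -1.06, 3.33, 4.37, 2.00 and 0.11 in filgotinib mice, 2.79, 1.24, 3.26, 2.88 and 4.68 in vehicle mice, and 2.63, 0.28, -0.04, 0.52 and 3.14 in water mice. Its order of mice was close to that of Col3a1. The part of fibroblast content in the collagen differences was not tested.

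Of 10 listed smooth muscle markers 8 were measured (not Lmod1 and Myocd) and none was called. Their summed signal ran from 27.8 to 51.2 in filgotinib mice, from 31.2 to 104 in vehicle mice and from 25.5 to 33.4 in water mice. The highest was vehicle mouse 1, with a mean shift of 3.22, which was not at the top of any collagen class. Des was well above background on 3 filgotinib, 3 vehicle and 1 water arrays and Myh11 on 4, 4 and 5. Of 9 endothelial markers 7 were measured (not Tek and Tie1) and none was called, with summed signals of 2.21 to 5.67 in filgotinib mice, 2.08 to 6.91 in vehicle mice and 2.31 to 3.50 in water mice, and with mean shifts of -0.96, 1.00, 1.86, -0.34 and -0.25 in filgotinib mice, 0.17, -0.69, 0.42, 0.28 and 2.12 in vehicle mice, and 0.59, -0.42, -0.19, -0.42 and 0.44 in water mice. The highest and lowest filgotinib and vehicle mice were those of the 15 collagens. Pecam1 alone ran from -1.80 to -1.45 in filgotinib mice, from -1.98 to -1.52 in vehicle mice and from -2.10 to -1.40 in water mice. Of the 4 leukocyte markers 3 (Cd52, Coro1a and Laptm5) rose in vehicle mice against water mice, where 10.8% of all genes were called higher. The summed signal of the 4 was 7.30 to 10.3 in filgotinib mice, 9.01 to 14.3 in vehicle mice and 6.59 to 9.22 in water mice. Of 8 listed enteric neuron and glia markers 5 were measured, and their summed signal was 1.00 to 1.41 in filgotinib mice, 1.88 to 2.79 in vehicle mice and 0.94 to 1.26 in water mice. Of these, Ret rose by 2.31 and Uchl1 by 1.40 in vehicle mice against water mice (limma adjusted p = 1.8e-05 and 0.000162), and fell by 1.36 and 1.16 in filgotinib mice against vehicle mice (adjusted p = 0.00195 and 0.00143). Ret, a receptor of enteric neurons, was also higher in filgotinib mice than in water mice, by 0.95 (limma adjusted p = 0.0162). Of all genes, 10.8% were called higher in vehicle against water. In filgotinib against vehicle 4.53% were called lower, and in filgotinib against water 6.42% higher. The part of these cells in the collagen results was not tested.

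**Figure D5:**
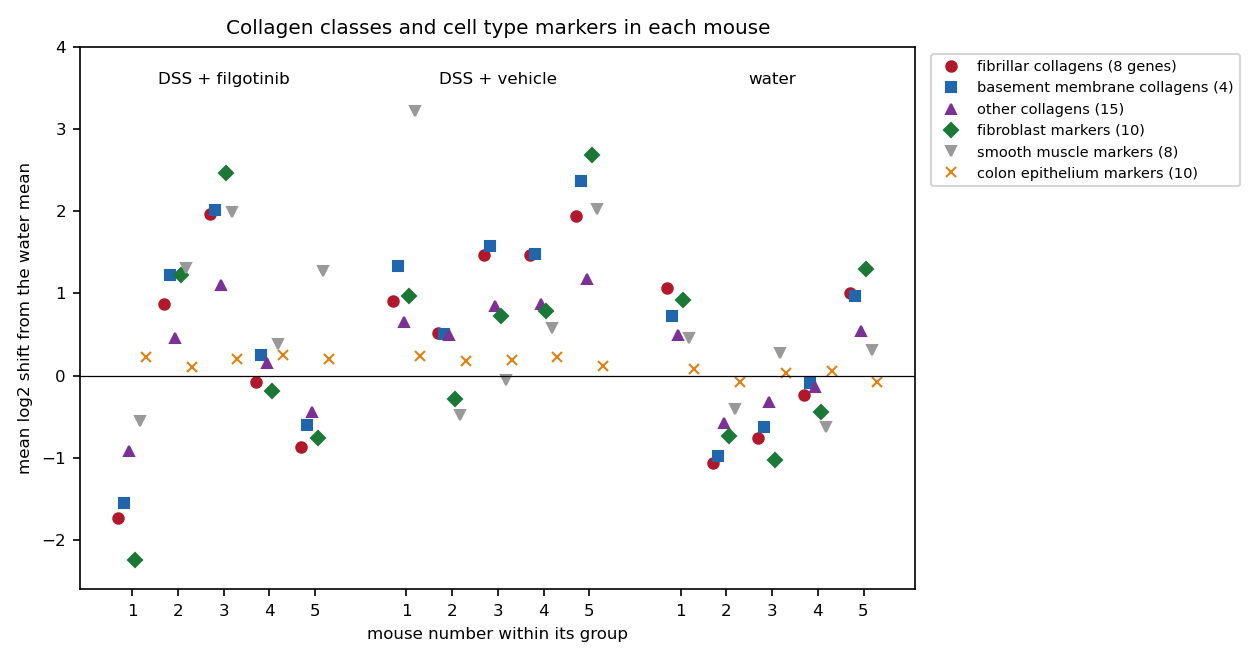
Mean log2 shift from the water mean (vertical axis) of 3 collagen classes and of fibroblast, smooth muscle and colon epithelium markers in each mouse of the filgotinib, vehicle and water groups. Collagen and fibroblast points move together from mouse to mouse, from -2.25 to 2.69, the smooth muscle points do not follow in vehicle mouse 1, and the epithelial points stay between -0.08 and 0.25.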

How the data were processed

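RNA of scraped distal colon mucosa from 15 mice was labelled with Cy3 and hybridised to one-colour Agilent arrays. Per the file headers, the authors' scanner files were made with Feature Extraction 11.5.1.1 and hold processed intensity values, background-subtracted within each array. The authors also deposited a log2 table of 32349 probes, normalised across arrays in a way not given in the sources used here. It was used as an alternative only, and it follows the scanner values with r of 0.9988 to 0.9997. From the intensities, log2 minus each array's 75th percentile was taken, 3671 control spots and outlier-flagged spots were dropped, and probes well above background on 5 or more arrays were kept, with the brightest probe standing for its gene. One limma 3.58.1 fit in R 4.3.3 of all 15 arrays (lmFit, eBayes) tested 22012 genes, with Benjamini-Hochberg adjustment within each comparison and calls at an adjusted p under 0.05. The steps were tested on simulated data. The number of arrays limits the precision, and replicates are separate mice.

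The collagens and all gene lists were chosen with earlier results of these data known. Named mouse by mouse were Col1a1, Col1a2, Col3a1, Col5a1, Col4a1 and Col4a2, every collagen called in the main fit, and the 3 largest changes of each comparison. Col5a2 was chosen too and did not pass the filter. Of the pathway lists, called members were named, or the 4 largest changes where more than 4 or none were called. Alternatives covered background correction, scaling, filters, probe choice, slide, scan day, a replicate block, empirical Bayes settings, the 2 groups alone and leaving out each mouse.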

Additional observations from a re-analysis of the deposited data

How the results depend on the processing

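The number of collagens called in vehicle against water was 3. It was 1 without the filter on dim probes, where 9.93% of all genes were called. It was also 1 with the slide as a random block (16.7%), with the scan day as a block (16.5%) and with the replicate block (15.5%). With the slide as a fixed block it was 0 (0.382%), and it was 11 when only the 2 groups were fitted (21.2%). In filgotinib against vehicle 1 was called. It was 0 under quantile normalization (10.7% of all genes), a common median (9.39%), normexp with quantile normalization (10.3%), the fixed slide block and the 2 groups alone (5.8%). It was 1 with the scan day as a block (14%, Col8a1 in place of Col9a2). With each probe on its own, an alternative chosen after seeing the data, it was 2 (9.85% of all probes). In filgotinib against water 0 were called and 5 without the filter (24.5% of all genes), all of them genes that do not pass it. In the 3 comparisons, in the order given, the fixed slide block left 0.382%, 1.99% and 0.00909% of all genes called. Of pathway genes in vehicle against water 8 were called, and 5 under a common median, 0 with the fixed slide block and 4 with the replicate block. In filgotinib against vehicle 1 pathway gene was called, with 2 under quantile normalization, normexp, above background on all arrays and trend with robust empirical Bayes, 3 in the authors' deposited table, and 0 without the filter, with the slide, with the replicate block and in the 2 groups alone. In filgotinib against water 4 were called, with 2 under a common median, 8 without the filter, 0 with the slide and 2 with the replicate block. The median collagen change of vehicle against water, 1.08, was 0.33 within slide 2, with 1 vehicle and 2 water mice. Within scan day 1, with 3 mice of each group, it was 1.65. The median collagen change of filgotinib against vehicle, -1.08, was -2.06 with the fixed slide block and within slide 3, and -1.92 within scan day 1. That of filgotinib against water, 0.05, was -1.39 with the fixed slide block. Leaving out each mouse in turn gave 1 to 5, 1 to 7 and 0 to 0 called collagens, medians of 0.81 to 1.34, -1.56 to -0.58 and -0.31 to 0.49, and 4 to 11, 0 to 3 and 3 to 5 pathway genes, in vehicle against water, filgotinib against vehicle and filgotinib against water. Of all genes, 12.9% to 21.1%, 5.97% to 13.9% and 3.38% to 13.1% were called in these fits, in the same order. No called change of the collagens given mouse by mouse changed sign, and the signs of other genes were not compared. Whether the replicate numbers pair the mice is not known here. The deviations of same-numbered mice correlated above 0.1 in 3, 2 and 0 of 5 pairs, with r of -0.14 to 0.53, -0.52 to 0.12 and -0.39 to -0.02. So few pairs cannot decide it. The causes of these shifts were not tested.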
